A study of Rattus norvegicus with 4 samples.

Results

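The measurements concerned 9 genes of hepatic lipid handling, compared between livers of rats treated with alpha-naphthylisothiocyanate (ANIT) and livers of rats treated with olive oil. They were taken as every spot whose single gene symbol in the platform annotation was Fasn, Scd, Scd2, Dgat1, Acat2, Acsl1, Lpl, Lipc or Apob. These 9 of 958 named genes occupied 11 of 1648 gene spots, with 2 spots each for Dgat1 and Acsl1 and 1 for each of the others. ANIT damages the cells that line bile ducts, and bile flow is impaired as a result. The animals were male Sprague-Dawley rats weighing between 250 and 300 g, injected intraperitoneally with ANIT at 75 mg/kg, dissolved in olive oil, or with an equal volume of the oil. The right lateral liver lobe was taken from 3 rats of each treatment at 12 h. RNA was pooled within a treatment, and both pools were hybridised together on each of 4 cDNA arrays, a dye swap in which the ANIT pool was labelled with Cy5 for arrays 1 and 3 and with Cy3 for arrays 2 and 4.

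In the liver, Fasn makes saturated fatty acids, the desaturases Scd and Scd2 introduce a double bond, and Dgat1 joins fatty acyl-CoA to diacylglycerol as the last step of triglyceride synthesis. Acsl1 couples free fatty acids to coenzyme A, which commits them either to oxidation or to esterification. Apolipoprotein B carries triglyceride out of the hepatocyte in very low density lipoprotein, and the lipases Lpl and Lipc hydrolyse lipid of circulating lipoproteins.

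The values were log ratios of both channels of an array, and the base of the logarithm and the direction of the ratio were not given in the sources used here. Sizes are therefore in log units, and sides are positive or negative against a 0 placed, on each array, at the median of its gene spots. If the ratio was ANIT over oil, positive means more transcript after ANIT, and if it was oil over ANIT every side below is turned. It was assumed that the numerator was the same treatment throughout the 4 arrays. Over gene spots, the arrays labelled alike had r = 0.95 (1 with 3) and 0.95 (2 with 4). Arrays labelled in opposite ways had r from -0.91 to -0.88, so the component that changed sign with the dye was wider (SD 0.48 over gene spots) than the mean of the 4 arrays (SD 0.10). If the numerator was instead the same dye throughout, the dye component would be the treatment comparison, and its values for the lipid genes are given near the end. The labels do not speak of more than 1 pool per treatment, and each p-value below therefore sets the difference between the pools against the spread between hybridisations, with no spread between animals in it.

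Of the 9 genes, Fasn changed on the positive side, at 0.21 ± 0.044 log units (SE, n = 4 arrays), and Acsl1 on the negative side, at -0.19 ± 0.041. In limma with a dye term for each gene, their Benjamini-Hochberg adjusted p over 1174 features was 0.0360 and 0.0354. The other members did not pass 0.05, with Scd nearest at an adjusted p of 0.0539. Across all features tested, 3.92% were called, of which positive calls made up 1.62% and negative calls 2.3% of the features. At an unadjusted p under 0.05, 8 of the 9 members passed (all but Acat2) beside 16.9% of all features. The members were chosen with earlier results of these arrays known, so these counts are a description and no evidence about the group. Their mean ratios were positive for 7 genes and negative for Acsl1 and Scd2, with a median of 0.11 against 0.0042 for all features. Without the dye term 0% of features passed in limma (0 of 9 members, with 5 features and 0 members at an unadjusted p under 0.05). In pooled liver, more RNA per hepatocyte and more hepatocytes cannot be told apart.

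**Figure D1:**
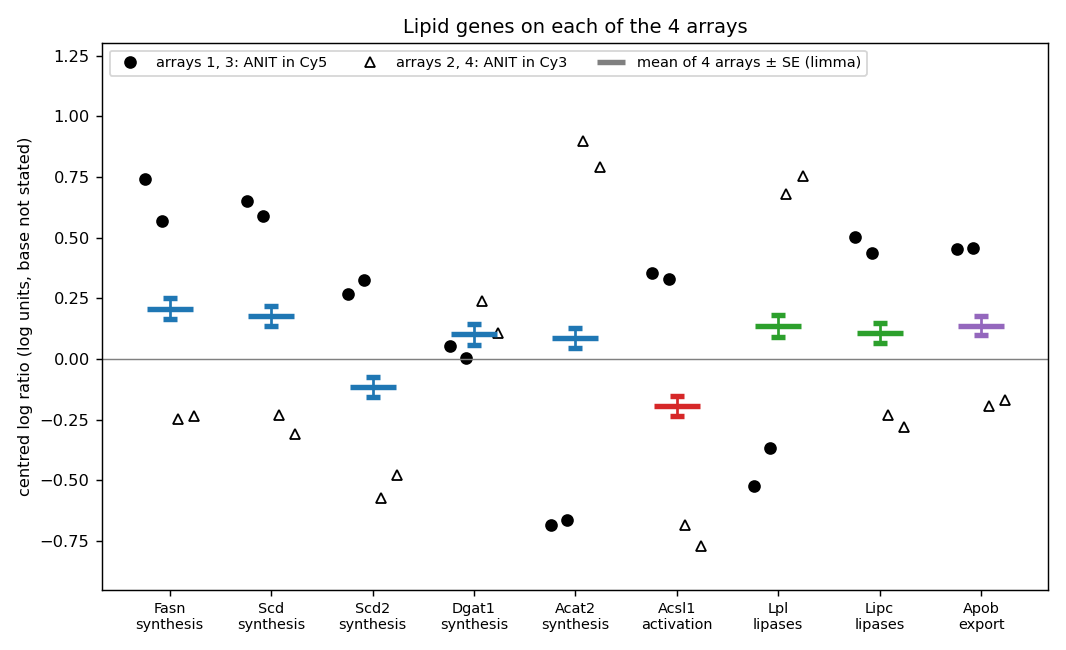
Centred log ratio (log units, vertical axis) of each lipid gene (horizontal axis, with its role) on each array; filled circles are arrays 1 and 3, open triangles arrays 2 and 4, and coloured bars the mean of the 4 arrays ± SE from limma. The dye orientations lie on opposite sides of 0 for 8 of the genes. Dgat1, the average of 2 spots that each lie on both sides of 0, lies above 0 on all 4 arrays.

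Fasn, the fatty acid synthase, had centred log ratios of 0.74, -0.25, 0.57 and -0.23 on arrays 1 to 4. Arrays 1 and 3 were high and arrays 2 and 4 low, so the sides of single arrays followed the dye. The mean lay on the positive side because the arrays with ANIT in Cy5 stood farther above 0, at 0.65, than the others stood below it, at -0.24. As a fold, 0.21 log units would be 1.15 for base 2, 1.23 for a natural logarithm and 1.61 for base 10. Without array 1 the ratio of Fasn was 0.16 and limma's adjusted p was 0.164. In the values as deposited the median feature stood at -0.21, and there Fasn stood at -0.0076 and did not pass (adjusted p = 0.852 in limma).

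Scd, a stearoyl-CoA desaturase, showed nearly the same pattern as Fasn, at 0.65, -0.23, 0.59 and -0.31 on arrays 1 to 4. Its mean ratio was 0.18 ± 0.041 (SE, n = 4 arrays). Fasn and Scd differed by 0.032 ± 0.036 within an array, less than its SE, and the sign of that difference varied between arrays. Scd2, a second desaturase isoform best known from brain, stood at 0.27, -0.57, 0.33 and -0.48, lower than Scd on each of the arrays. Its mean was -0.11 ± 0.041, with an adjusted p of 0.187 in limma.

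The desaturase pair could be compared without regard to the 0 of each array, since a constant subtracted from a whole array leaves the difference of 2 of its log ratios as it was. Centring each print block by itself does change such differences, and there Scd minus Scd2 was 0.28. Scd exceeded Scd2 by 0.38, 0.34, 0.26 and 0.17 log units on arrays 1 to 4, with a mean of 0.29 ± 0.053 (SE). All 4 arrays lay on the same side in both dye orientations, at 0.32 with ANIT in Cy5 and 0.26 with ANIT in Cy3. The exact sign-flip permutation test, two-sided, gave p = 0.13, the smallest that 4 arrays allow. Each desaturase was measured by 1 cDNA spot, and how far either spot also bound the transcript of the other was not tested.

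Scd and Scd2 are close neighbours on chromosome 1 of the rat, with 1 protein-coding gene between them in the RefSeq annotation of GRCr8. Because their ratios differed on every array, the promoter windows of both are shown, from 250 bases before to 50 after the RefSeq transcription start, with that of Acsl1, the member on the far negative side. RefSeq promoters matched by symbol for 5 of the 9 genes, and Fasn, Dgat1, Lpl and Apob had none to search. Capitals mark the CCAAT box, the binding motif of NF-Y, on either strand.

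Scd promoter, GRCr8 chr1:253231682-253231981, minus strand: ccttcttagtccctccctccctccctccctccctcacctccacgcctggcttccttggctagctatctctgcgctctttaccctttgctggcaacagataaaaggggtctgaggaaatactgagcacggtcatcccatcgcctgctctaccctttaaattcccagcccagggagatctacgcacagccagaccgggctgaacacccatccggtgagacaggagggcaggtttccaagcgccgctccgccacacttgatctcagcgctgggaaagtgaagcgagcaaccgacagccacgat

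Scd2 promoter, GRCr8 chr1:253118127-253118426, plus strand: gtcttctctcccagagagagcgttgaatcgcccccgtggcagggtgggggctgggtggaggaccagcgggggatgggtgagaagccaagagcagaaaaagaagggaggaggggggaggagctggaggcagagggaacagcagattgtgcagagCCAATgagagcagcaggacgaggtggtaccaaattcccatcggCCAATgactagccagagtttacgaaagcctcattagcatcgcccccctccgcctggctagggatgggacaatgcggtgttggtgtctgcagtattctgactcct

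Acsl1 promoter, GRCr8 chr16:52532343-52532642, minus strand: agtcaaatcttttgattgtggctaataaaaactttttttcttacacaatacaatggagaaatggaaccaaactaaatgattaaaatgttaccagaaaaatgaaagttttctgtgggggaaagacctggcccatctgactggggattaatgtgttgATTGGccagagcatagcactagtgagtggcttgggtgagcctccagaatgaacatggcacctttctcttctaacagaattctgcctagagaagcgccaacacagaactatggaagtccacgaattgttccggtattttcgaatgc

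The Scd2 window held 2 CCAAT motifs, starting at -97 and -54 from the transcription start. The Acsl1 window held 1 on the opposite strand (read as ATTGG) starting at -95, and the Scd window held none. All windows rest on the annotated start alone. In the Acsl1 window a pyrimidine-rich run ending in ag lies shortly before that start, and an atg follows it closely. It may therefore hold intron and coding sequence, and whether it acts as a promoter was not tested. Lipc, also matched, held 1 on the opposite strand at -64, and Acat2 held none. CCAAT in either orientation occurred in 37.5% of the 33469 rat promoter windows of this length. The sterol regulatory element written as TCACNCCAC, searched on both strands because SREBP factors act on lipogenic genes, occurred in 0 of the 5 matched windows and in 1.12% of all windows. CACGTG, the E-box read by USF and ChREBP, was likewise found in 0 of the 5, against 6.42% of all windows. GGGCGG, read by Sp1, was present in 1 of the 5, Acat2, against 33.1% of all windows. TATAAA, the TATA box, was present in 0 of the 5, against 14.2%. No overlap between these motifs was present in the 5 windows, and a missing match says only that the letters are not in that window.

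Dgat1, the acyltransferase that completes triglyceride synthesis, was the member whose 4 arrays all lay on one side, at 0.055, 0.24, 0.0054 and 0.11. Over all features, 2.81% had the 4 centred arrays on one side of 0. Its mean ratio was 0.10 ± 0.043 (adjusted p = 0.272 in limma). The gene value averaged 2 spots that disagreed, and neither spot alone had its 4 arrays on one side. One Dgat1 spot stood at 0.23, 0.064, 0.18 and -0.31 with a mean of 0.038, and the other at -0.12, 0.41, -0.17 and 0.53 with a mean of 0.17. The dye component of the spots was 0.16 and -0.31, so the small dye component of the gene, -0.072, came from averaging spots of opposite sign. The gap in mean ratio between them, 0.13, was exceeded by 22.2% of the 261 genes with 2 spots.

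Acat2, the cytosolic thiolase that forms acetoacetyl-CoA at the start of cholesterol synthesis, stood at -0.68, 0.90, -0.66 and 0.79 on arrays 1 to 4. Here the arrays with ANIT in Cy3 were the high ones, the reverse of Fasn. Its mean ratio of 0.086 ± 0.041 did not pass (adjusted p = 0.329 in limma). Fasn exceeded it by 0.12 ± 0.056 in the mean, but the difference was 1.42 and 1.23 on arrays 1 and 3 and -1.14 and -1.02 on arrays 2 and 4. The side of the difference thus followed the dye.

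Acsl1, the long-chain acyl-CoA synthetase, had centred log ratios of 0.35, -0.68, 0.33 and -0.77 on arrays 1 to 4. Arrays 2 and 4 lay farther below 0 than arrays 1 and 3 lay above it, which placed the mean at -0.19. As a fold this would be 1.14 for base 2, 1.21 for a natural logarithm and 1.56 for base 10. The 2 Acsl1 spots lay on the same side with different sizes, at -0.29 and -0.10. Fitted on its own, the larger passed (adjusted p = 0.00359 in limma over 1648 spots) and the smaller did not (0.285). The gap of 0.19 between them was exceeded by 9.96% of genes with 2 spots, beside a median gap of 0.068. In the values as deposited Acsl1 stood at -0.41 and passed (adjusted p = 0.000886 in limma). The median feature stood at -0.21 there, and 1061 of 1174 features passed, 1057 of them on the negative side. Without array 1, 3 or 4 the ratio of the gene was -0.20, -0.19 and -0.17 and did not pass, with adjusted p of 0.1005, 0.157 and 0.1003 in limma.

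The gap between Fasn and Acsl1, of synthesis and of activation, is likewise free of the 0 chosen for each array, and it was 0.36 with print blocks centred. Fasn exceeded Acsl1 by 0.39, 0.44, 0.24 and 0.54 log units on arrays 1 to 4, a mean of 0.40 ± 0.045 (SE). All 4 arrays agreed in side, in both dye orientations (0.31 with ANIT in Cy5, 0.49 with ANIT in Cy3), and the exact sign-flip p was again 0.13. Averaged over its 2 spots, Acsl1 lay below Apob on each array too, by -0.10, -0.49, -0.13 and -0.60, a mean of -0.33 ± 0.029. That gap was larger on the arrays with ANIT in Cy3 (-0.55) than on those with ANIT in Cy5 (-0.11). Of all 36 pairs of members, 8 had a difference of one sign on the 4 arrays, beside 5.57% of all pairs of features. These were the pairs that set Fasn, Scd, Lipc or Apob, each higher, against Scd2 or Acsl1. The 6 genes in them had dye components of the same sign. The 5.57% was not matched for dye component, and the 8 pairs reuse the same 6 genes, so the counts are not a like comparison. For Acsl1 these pairs used the average of its 2 spots. The spot with the smaller ratio stood at 0.53 on array 1, above Apob at 0.45 and Lipc at 0.50 though below Fasn at 0.74. The one-sided pairs of Acsl1 with Apob and with Lipc therefore did not hold for that spot.

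**Figure D2:**
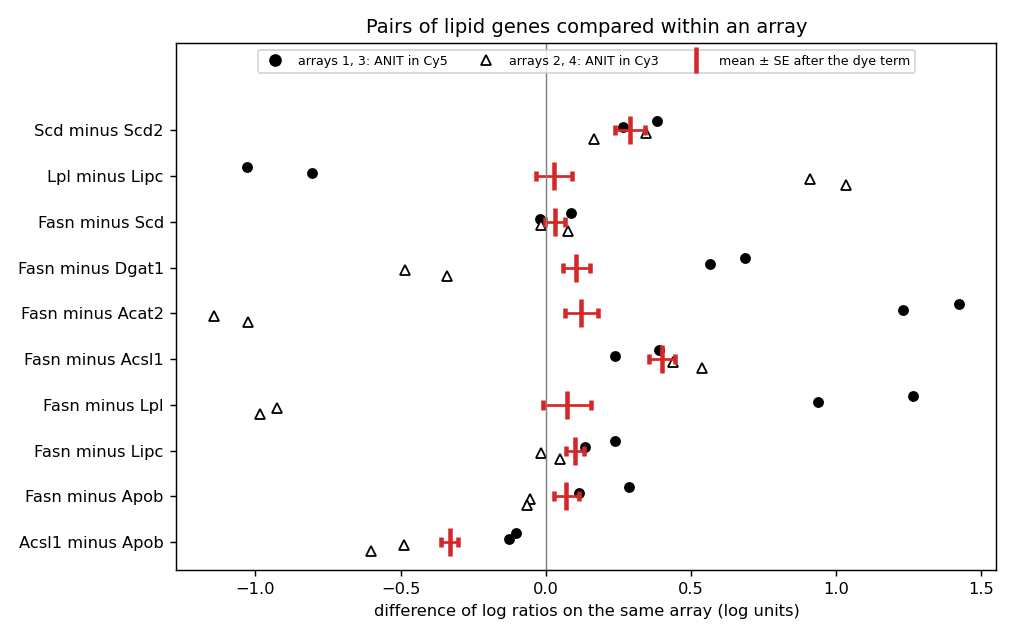
Difference of log ratios between 2 lipid genes on the same array (log units, horizontal axis) for 10 of the 36 pairs; filled circles are arrays 1 and 3, open triangles arrays 2 and 4, and red bars the mean ± SE after the dye term. Scd minus Scd2 and Fasn minus Acsl1 lie above 0 on all 4 arrays, and Acsl1 minus Apob lies below 0. Acsl1 and Dgat1 are averages of 2 spots. Pairs that include Lpl or Acat2 switch side with the dye, as do Fasn minus Dgat1 and Fasn minus Apob.

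The lipases lay on the positive side without passing. Lpl, lipoprotein lipase, which acts at the capillary wall and is low in adult hepatocytes, stood at -0.52, 0.68, -0.37 and 0.75. Lipc, the hepatic lipase secreted by hepatocytes, stood at 0.50, -0.23, 0.44 and -0.28, so its high and low arrays were the reverse of those of Lpl. Their mean ratios were nonetheless alike in size, 0.14 ± 0.044 for Lpl and 0.11 ± 0.040 for Lipc, with adjusted p of 0.157 and 0.213 in limma. The mean difference between them was 0.028 ± 0.064, while single arrays put Lpl below Lipc by -1.03 and -0.80 or above it by 0.91 and 1.03. The orientation means, -0.92 and 0.97, nearly cancelled, and the mean difference was smaller than its SE.

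Apob, the structural protein of very low density lipoprotein, had the tightest replicates of the group, at 0.45 and 0.46 on arrays 1 and 3 and -0.19 and -0.17 on arrays 2 and 4. Its residual SD was 0.012, against 0.086 for Fasn and a median of 0.078 over all features. The mean ratio was 0.14 ± 0.039 (adjusted p = 0.109 in limma, which draws each gene's spread toward that of the others). Fasn exceeded Apob by 0.071 ± 0.043, with arrays 1 and 3 above 0 and arrays 2 and 4 below it. By role, the median ratio was 0.10 over the 5 synthesis genes, 0.12 over the lipases, 0.14 for export and -0.19 for acyl-CoA activation.

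The dye component, the part of the log ratio that changed sign with the labelling, separated most members by its own sign. It was between 0.32 and 0.53 for Apob, Lipc, Scd2, Scd, Fasn and Acsl1, and -0.58 and -0.76 for Lpl and Acat2. For Dgat1 it was -0.072, the average of spots at 0.16 and -0.31. Control spots, taken from their layout and with identities not given in the sources used here, fell into 5 sets that spanned the same range. Sets B (48 spots) and E (96 spots) had median dye components of -0.78 and -0.92, so Acat2 lay close to set B. Brightness of the spots was not analysed here, and whether Lpl and Acat2 were above background is unknown.

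The control spots also gave ratios to set beside those of the members. Set A, 48 spots with a median dye component of 0.52, had a median ratio of 0.22 with an SD of 0.021 over spots, ranging from 0.15 to 0.25. Fasn at 0.21 and Scd at 0.18 lay within that range, and Apob at 0.14 and Lipc at 0.11 below it. Set D, with a dye component of 0.68, stood at 0.11 ± 0.039 (SD over 48 spots). Sets B, C and E stood at 0.022, 0.023 and -0.023. With 0 placed at the median of set A, all 9 members would lie on the negative side, as would most features. Fasn, the highest member, already stood above 98.3% of all features. The members would range from -0.0077 for Fasn and -0.039 for Scd to -0.33 for Scd2 and -0.41 for Acsl1. Whether the ratios of set A, Fasn and Scd have a common source was not tested.

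**Figure D3:**
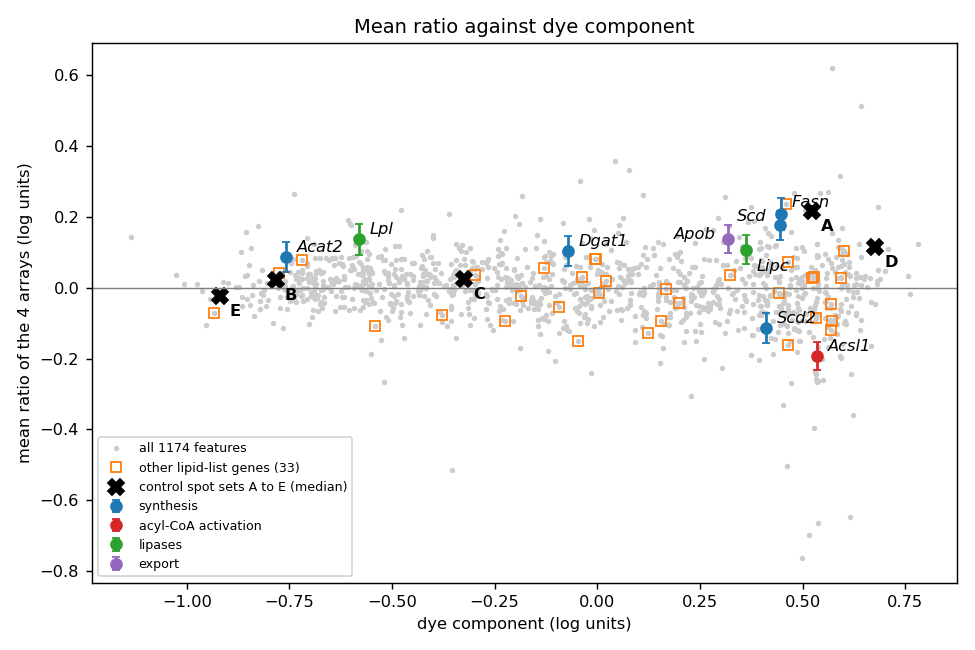
Mean ratio of the 4 arrays (log units, vertical axis) against the dye component (log units, horizontal axis) for all 1174 features (grey), the other lipid-list genes (orange squares), the lipid genes by role (coloured, ± SE from limma) and medians of control spot sets A to E (crosses). Fasn and Scd lie beside set A, Acat2 near set B, and Acsl1 and Scd2 below 0 at a like dye component.

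Position on the slide was shared by several members. Fasn and Lpl were adjacent spots of print block 11, Scd and Apob lay in block 12, and Lipc and a Dgat1 spot in block 2. The median ratio of all gene spots was 0.025 in block 11, 0.011 in block 12 and -0.021 in block 2. With each block centred on its own median on each array, Fasn stood at 0.19 and Acsl1 at -0.17, with adjusted p of 0.0605 and 0.0623 in limma. Neither then passed, while the sides of all 9 genes were kept.

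Over 7 lists of lipid genes, 42 were measured, and 3 of them were called, Fasn, Acsl1 and Nr0b2, beside 3.92% of all features. Fasn and Acsl1 are members, and of the 33 measured genes that are not members 1 was called. The list of fatty acid and triglyceride synthesis had 6 of 32 genes measured, 1 called positive and a median of 0.069. Beside the members it held Me1, malic enzyme, at 0.036, and Fads2, a polyunsaturated fatty acid desaturase, at -0.048. Of 7 measured genes of fatty acid oxidation Acsl1 alone was called, and the other 6 lay between -0.078 for Cpt1a, the carnitine palmitoyltransferase that admits fatty acids to mitochondria, and 0.081 for Acadl, an acyl-CoA dehydrogenase.

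The list of lipases and lipid droplets had 2 of 24 genes measured, Lpl and Lipc, and 0 called. Among 6 lipoprotein genes 0 were called, with a median of 0.011. Apob was the largest of them, followed by Apoe, a ligand of lipoprotein receptors, at 0.10, while Apoa1, the main protein of high density lipoprotein, stood at -0.095. All 4 cholesterol synthesis genes were positive between 0.029 and 0.086 and 0 were called. In fatty acid uptake and binding 0 of 5 were called, with Fabp7, a fatty acid binding protein, the largest at -0.16 (adjusted p = 0.0839 in limma) and a list median of -0.093. Of 12 measured regulators of lipid genes, Nr0b2, the nuclear receptor SHP, was called at 0.24 ± 0.041 (adjusted p = 0.0132 in limma), and 3 of the 12 were positive. The arrays of Nr0b2 stood at 0.67, -0.27, 0.72 and -0.18, so their sides followed the dye, as those of Fasn did. At an unadjusted p under 0.05 in limma, 16.9% of all features passed. The counts were 4 of 6 for synthesis, 1 of 7 for oxidation, 2 of 2 for lipases and 1 of 6 for lipoproteins. Every gene that passed in these lists was a member, chosen with earlier results known, and their other measured genes did not pass. These counts therefore restate the members and are no evidence about the lists. Counts were 0 of 4 for cholesterol synthesis, 1 of 5 for uptake and 3 of 12 for regulators.

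The named genes whose 4 centred arrays lay nearest to those of Fasn, by root mean square distance, were Scd at 0.060, the acute phase protein Orm1 at 0.068 and the iron carrier Tf at 0.079 log units. Those nearest to Acsl1 were the transcription factor Stat3 at 0.033, the ribosomal protein gene Rpl6 at 0.064 and Cks1b, a subunit of cyclin-dependent kinases, at 0.069. The distance between Fasn and Acsl1 was 0.42. With 4 arrays, such nearness describes a shared ratio and dye component and no more.

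Markers of cell types that could carry these transcripts were thinly covered, and log ratios hold no level by which to check the tissue. Of 11 hepatocyte markers 4 were measured, and Ttr at 0.23 and Tf at 0.19 were called on the side of Fasn, beside Serpina1 at 0.046 and Apoa1 at -0.095. The adipocyte list had 1 of 7 measured, Fabp4 at -0.11, and the macrophage list 1 of 8, Fcgr2b at -0.12. Bile duct markers (2 of 6 measured) stood at -0.065 and -0.010, and endothelial and stellate markers (3 of 9) between -0.095 and -0.024. None of these non-hepatocyte markers passed in limma, where 1 (Fcgr2b) had an unadjusted p under 0.05. Their part in the lipid gene ratios was not tested.

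Under the other reading of the arrays, with the same dye as numerator throughout, the dye component becomes the comparison of the treatments, and 86.5% of all features were called in limma. Of the lipid genes 8 of 9 were called, close to that background, and Dgat1 was not (adjusted p = 0.141). Fasn stood at 0.45 ± 0.044, Scd at 0.45 ± 0.041, Scd2 at 0.41 ± 0.041, Acsl1 at 0.53 ± 0.041, Lipc at 0.36 ± 0.040 and Apob at 0.32 ± 0.039 on one side. Lpl at -0.58 ± 0.044 and Acat2 at -0.76 ± 0.041 stood on the other. Fasn and Acsl1 would then share a side, and Scd and Scd2 would differ by 0.034 ± 0.053 in place of 0.29.

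**Figure D4:**
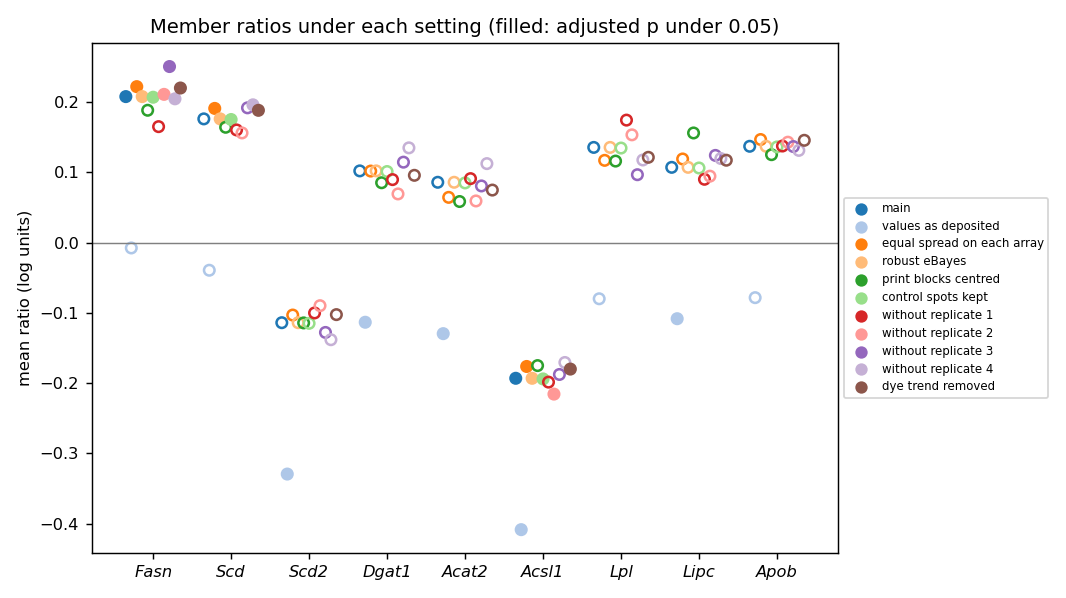
Mean ratio (log units, vertical axis) of each lipid gene (horizontal axis) in the fit reported and in 10 alternative settings of the centring, scaling, variance, arrays or trend (colours); filled circles passed an adjusted p of 0.05 in limma. Apart from values as deposited, where all 9 genes lie below 0 and the median feature stands at -0.21, each gene keeps its side in these settings.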

How the data were processed

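The authors deposited 1 log ratio per spot and array for 4 two-colour cDNA arrays, in 1 group with 2 dye orientations. How the arrays were scanned, corrected for background, normalized and filtered is not given in the sources used here. Spots at the 18 positions per print block that carried no annotation in any of the 16 blocks (288 spots) were taken as controls. Print blocks were inferred from spot order. Of 1432 gene spots with a single symbol in the platform annotation, 1429 had their Entrez identifier in the RefSeq gene table. The median over gene spots was subtracted from each array, spots of a gene were averaged, and spots with several genes or none stayed as 216 unnamed features. There were 0 missing values, so filters on them change nothing.

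Ratios were tested in limma 3.58.1 (R 4.3.3; lmFit, eBayes, two-sided) against 0 with a dye term, 2 residual degrees of freedom and Benjamini-Hochberg adjustment over 1174 features. The scripts were tested on simulated data. The members, lists, pairs and tests were chosen with earlier results of these data known. Named genes were the members, called or else largest genes of each lipid list, and the 3 genes nearest to Fasn and to Acsl1; Me1, Fads2, Cpt1a, Acadl, Apoe, Apoa1 and the markers were added as examples after their values were seen. Promoters are RefSeq sequences of GRCr8. Figures were drawn with matplotlib 3.10.9.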

Additional observations from a re-analysis of the deposited data

How the results depend on the processing

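No paired analysis was possible because the 4 arrays form a single group. In the fit reported, 46 features and 2 members passed in limma. With values as deposited, 1061 features and 5 members passed, all 5 negative: Scd2 stood at -0.33, Acat2 at -0.13, Dgat1 at -0.11, Lipc at -0.11 and Acsl1 at -0.41. There Lpl (-0.080), Apob (-0.078), Scd (-0.039) and Fasn (-0.0076) turned negative without passing. Without the dye effect 0 features and 0 members passed (5 features at an unadjusted p under 0.05), with Fasn at 0.21 and Acsl1 at -0.19. With print blocks centred 0 members passed (33 features), with Fasn at 0.19 and Acsl1 at -0.17, and Fasn minus Lipc moved to 0.032. The control spots as features gave 102 features, and every probe on its own 87, where the second Acsl1 probe stood at -0.10 without passing and a member counted only if all its probes passed. Scd passed with equal spread (0.19), robust eBayes (0.18), control spots kept (0.18), each probe alone (0.18), without array 4 (0.20) and, in a setting chosen after seeing the data, the trend of ratio on dye component removed (0.19). With 1 array left out, features ranged from 28 to 86, members from 0 to 2, Fasn from 0.16 to 0.25, Scd from 0.16 to 0.20 and Acsl1 from -0.22 to -0.17. The remaining array of that orientation is then assumed to vary like the others. With the same dye over the other on every array, 1015 features and 8 members passed. Scd (0.45), Lipc (0.36) and Apob (0.32) passed there, Scd2 (0.41) and Acsl1 (0.53) turned positive, and Dgat1 (-0.072), Acat2 (-0.76) and Lpl (-0.58) turned negative. Within an array, Scd minus Scd2 became 0.034, Lpl minus Lipc -0.94, Fasn minus Dgat1 0.52, Fasn minus Acat2 1.21, Fasn minus Acsl1 -0.087, Fasn minus Lpl 1.03 and Acsl1 minus Apob 0.22. The number of arrays, and a signal over background that is unknown, limit the precision.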
